A study of Mus musculus with 12 samples.

Results

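The genes of the proteasome were described in ribosome-associated RNA of parvalbumin interneurons from mouse cortex. Members were all genes whose symbol begins with Psma, Psmb, Psmc, Psmd, Psme, Psmf or Psmg and a digit, and the deposited table held 46 of them among 13190 genes. They comprised 7 alpha-ring and 7 beta-ring subunits of the core particle, 1 immunoproteasome subunit (Psmb10), and 17 subunits of the regulatory particle, of which 6 are ATPases, 3 other base subunits and 8 lid subunits. The remaining members were 4 core assembly chaperones, 3 base assembly chaperones, 4 activators, 1 inhibitor and 2 further matches. Psmc3ip, one of these matches, encodes a factor of meiotic recombination that binds an ATPase subunit and is not itself a subunit. The other, Psme2b, is a near copy of the activator gene Psme2 in a single exon. Psma8, Psmb8, Psmb9 and Psmb11 were not among the 46, so Psmb10 alone represents the immunoproteasome here.

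The proteasome degrades proteins that carry ubiquitin chains. Its core particle is a barrel of stacked alpha and beta rings with the protease sites on the inside, and its regulatory particle caps the barrel, binds ubiquitin, removes it and unfolds the substrate with a ring of ATPases. Dedicated chaperones assemble both particles, alternative activators can take the place of the regulatory particle, and interferon exchanges the catalytic subunits for immunoproteasome forms. In neurons the proteasome is known for its part in synaptic protein turnover and plasticity.

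The 12 libraries fell into 4 groups of 3 that crossed genotype with housing: single-housed Nptx2 KO, group-housed Nptx2 KO, single-housed wild type and group-housed wild type. The labels state that the 3 libraries of a group are biological replicates. Housing began at weaning and lasted for 4 weeks or more, and no age at collection is given. All animals were C57BL/6 mice with the alleles PV-Cre k/+ and RiboTag k/k, so Cre from the parvalbumin locus switched on the ribosomal tag in every group, controls included. Nptx2 encodes a secreted pentraxin that gathers AMPA receptors at excitatory synapses on these cells, and the question addressed was how isolation and loss of Nptx2 alter the RNA on their ribosomes. In bulk RNA of this kind fewer cells of a type and less RNA per cell cannot be told apart.

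Each value is the log2(FPKM + 1) deposited by the authors, where FPKM counts fragments per length of transcript and scales them to the mapped total of the library. All libraries had nearly the same distribution of values, with sorted values apart by at most 0.0351 on the log2 scale, which is what quantile normalisation gives, so overall shifts between libraries cannot be seen. The table holds no counts, so depth is unknown. Pvalb, which marks the cells pulled down, ranged over the libraries from 9.65 to 10.28. The 11 markers of parvalbumin interneurons summed to 3976 to 4302 FPKM. Against this, 8 markers of other interneurons summed to 359 to 778 FPKM and 7 deposited markers of excitatory neurons to 133 to 185 FPKM. The sums were 38.7 to 50.7 FPKM for 6 markers of astrocytes and 75.3 to 107 FPKM for 7 of oligodendrocytes. They were 40.9 to 59.3 FPKM for 12 of microglia and 4.56 to 6.86 FPKM for 3 of endothelium. Nptx2 itself was at 2.37 to 2.74 in libraries labelled KO and at 2.23 to 2.62 in wild-type libraries (log2(FPKM + 1)). It was thus not lower in the libraries labelled KO, the sources used here do not say which part of the gene was removed, and genotypes are named as labelled throughout. The Y-linked genes Ddx3y, Eif2s3y and Kdm5d together reached 17.8 to 21.1 FPKM in single-housed wild type, and at most 0.0246 FPKM in group-housed wild type. In single-housed KO the libraries CTTGTA and AGTCAA carried this signal and CAGATC did not, and all group-housed KO libraries were at 0. In wild type, housing and sex therefore cannot be told apart, and in KO only CAGATC breaks their alignment.

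Promoters are shown for 4 members whose values are followed below, 3 core subunits with the smallest p-values in wild-type housing for which RefSeq gave a promoter window, and Psmg1, a core assembly chaperone that was highest in single-housed KO. Each window covers 250 bases before and 50 bases after the RefSeq transcription start on GRCm38.p6 and is written 5′ to 3′ on the gene's strand. The windows are chr3:108256676-108256975 on the plus strand for Psma5, chr2:180042415-180042714 on the minus strand for Psma7, chr11:70525107-70525406 on the plus strand for Psmb6 and chr16:95990911-95991210 on the minus strand for Psmg1. Capitals mark a match, on either strand, to the core of the antioxidant response element (TGACNNNGC or TGAGNNNGC) in Psma5, Psma7 and Psmb6, to the CCAAT box in Psma7, and to an ETS site (CCGGAAG) in Psmg1.
Psma5 promoter: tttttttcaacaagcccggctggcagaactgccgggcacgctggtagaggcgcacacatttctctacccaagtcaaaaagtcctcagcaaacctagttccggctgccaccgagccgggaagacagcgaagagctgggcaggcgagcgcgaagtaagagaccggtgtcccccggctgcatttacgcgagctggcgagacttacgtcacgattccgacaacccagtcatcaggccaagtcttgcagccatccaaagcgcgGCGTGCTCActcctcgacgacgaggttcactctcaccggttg
Psma7 promoter: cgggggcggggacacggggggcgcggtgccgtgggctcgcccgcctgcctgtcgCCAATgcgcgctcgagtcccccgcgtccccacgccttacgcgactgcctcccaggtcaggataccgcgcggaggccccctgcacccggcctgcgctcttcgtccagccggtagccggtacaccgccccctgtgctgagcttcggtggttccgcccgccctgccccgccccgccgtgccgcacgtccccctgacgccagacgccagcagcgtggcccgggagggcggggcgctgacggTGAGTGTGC
Psmb6 promoter: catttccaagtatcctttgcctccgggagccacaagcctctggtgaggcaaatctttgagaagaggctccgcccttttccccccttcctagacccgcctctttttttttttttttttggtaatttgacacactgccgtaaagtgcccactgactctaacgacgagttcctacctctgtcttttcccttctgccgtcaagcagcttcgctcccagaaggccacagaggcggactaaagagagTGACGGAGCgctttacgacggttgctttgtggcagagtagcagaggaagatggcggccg
Psmg1 promoter: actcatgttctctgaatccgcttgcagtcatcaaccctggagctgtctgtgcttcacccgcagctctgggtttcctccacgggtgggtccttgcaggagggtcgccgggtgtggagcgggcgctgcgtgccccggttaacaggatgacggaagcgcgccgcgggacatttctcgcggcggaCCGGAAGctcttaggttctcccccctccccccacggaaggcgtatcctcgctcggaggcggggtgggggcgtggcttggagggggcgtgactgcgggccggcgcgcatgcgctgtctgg

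Of the 46 members 39 matched a RefSeq promoter entry, giving 42 windows of 300 bases. The antioxidant response element core, the kind of site through which Nfe2l1 and its relatives act, was found in 18 of the 42 windows (42.9%), against 27.8% of all 32851 RefSeq mouse windows and 31% of the windows of deposited genes. Among core particle subunits it was in 8 of 12 windows. The ETS site was in 38.1% of member windows, against 8.86% of all windows and 17% of those of deposited genes, and only 1 of its matches lay in a core subunit's window. CCAAT was in 31% of member windows and 37.4% of all windows. The composite site of the stress factor ATF4 (TGATGNAAT) was in 0 member windows and in 0.965% of all windows. The 2 patterns most frequent in member windows were thus spread unequally between core genes and the rest, as a description of these letters alone.

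Proteasome transcripts were abundant and steady. Psmc5, an ATPase of the base, had the highest mean, 227.7 ± 8.50 FPKM over the 12 libraries (mean ± SD). It was at 232, 230.4 and 222 FPKM in single-housed KO, 229.9, 213 and 229 FPKM in group-housed KO, 244, 235 and 229.9 FPKM in single-housed wild type, and 222, 230.4 and 215 FPKM in group-housed wild type. After it came the beta-ring genes Psmb5, Psmb6 and Psmb1, with means of 196, 193 and 184 FPKM. The difference between Psmb5 and Psmb6 was smaller than their spread over libraries. The lowest member was Psmc3ip, at 0.919 ± 0.165 FPKM. It had 0.823, 0.896 and 0.997 FPKM in single-housed KO, 0.810, 1.05 and 0.842 FPKM in group-housed KO, 0.839, 0.938 and 1.01 FPKM in single-housed wild type, and 1.32, 0.659 and 0.846 FPKM in group-housed wild type. All 46 members passed the filter of at least 1 FPKM in at least 3 libraries, and 34 stood in the top quartile of the 12716 genes tested.

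Levels differed far more between members than between groups, as the plot of all members by role shows. Mean FPKM ran from 33.6 (Psma3) to 124 (Psma6) in the alpha ring and from 99.5 (Psmb2) to 196 (Psmb5) in the beta ring. ATPases ran from 64.1 (Psmc6) to 228 FPKM (Psmc5), other base subunits from 59.6 (Psmd1) to 87.6 (Psmd4), and lid subunits from 18.9 (Psmd11) to 109 (Psmd8). Psmd11, a lid scaffold that also contacts the core, stood apart from its neighbours. Its FPKM was 0.228 to 0.316 times that of the lid gene Psmd12 in every library, although complete particles hold both subunits in equal number. Psma3 was in the same way at 0.243 to 0.292 times the FPKM of Psma6. FPKM divides by transcript length. The annotated transcripts of Psmd11 and Psma3 have 2848 and 2846 bases, against 1904 for Psmd12 and 1042 for Psma6. Psmd11 also has a near copy in the deposited table, A730017L22Rik, 97.94% identical over 52.7% of the transcript. The part of length and of this copy in the ratios was not tested. Assembly factors were lower than all core and regulatory subunits but Psmd11: core assembly chaperones had mean levels of 12.7 to 22.1 FPKM and base assembly chaperones of 10.2 to 12.9 FPKM. The activators ran from 5.18 FPKM for Psme4, a nuclear activator, to 46.2 FPKM for Psme3, and the inhibitor Psmf1 averaged 11.8 FPKM.

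**Figure D1:**
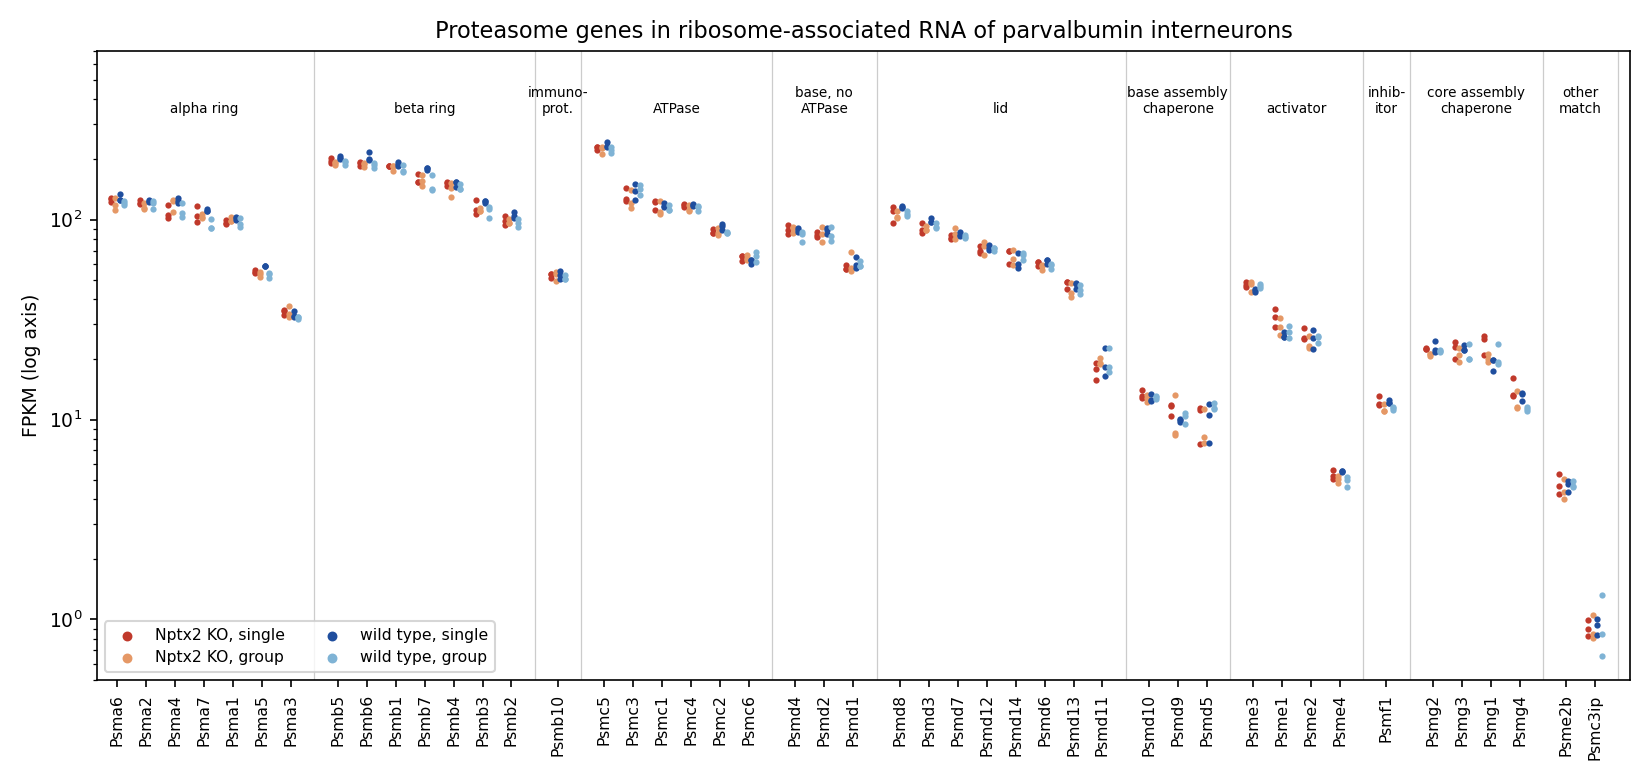
FPKM on a log axis for each of the 46 members, grouped by role and sorted by mean level, with 1 point per library coloured by group. The order of the genes is much wider than the scatter of the 12 libraries within a gene, from 0.919 FPKM for Psmc3ip to 228 FPKM for Psmc5.

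The immunoproteasome subunit was below its constitutive counterpart in every library. Psmb10 takes the place of Psmb7 in the immunoproteasome, and both were deposited. It was at 53.6, 53.3 and 50.8 FPKM in single-housed KO and 53.5, 54.8 and 49.4 FPKM in group-housed KO. In single-housed wild type it had 50.6, 55.5 and 52.7 FPKM, and in group-housed wild type 50.7, 53.1 and 50.5 FPKM. The 4 groups overlapped. The ratio of Psmb10 to Psmb7 in FPKM was 0.318 to 0.346 in single-housed KO, 0.317 to 0.365 in group-housed KO, 0.279 to 0.314 in single-housed wild type, and 0.304 to 0.374 in group-housed wild type. Of the 14 genes in the interferon and MHC class I list, which are induced together with the immunoproteasome, 8 were deposited. They summed to 44.3 to 55.4 FPKM in single-housed KO and 55.8 to 62.0 FPKM in group-housed KO. In wild type the sums were 44.5 to 54.5 FPKM in single housing and 58.9 to 61.8 FPKM in group housing. These sums were lower in single housing without overlap in both genotypes, but a sum weighs abundant genes most. Of the 7 genes tested, 4 were lower and 3 higher in single-housed KO. In single-housed wild type 5 were lower and 2 higher. Microglia are known to express immunoproteasome genes. All 12 of their listed markers were deposited and summed to 40.9 to 59.3 FPKM, and their part in the Psmb10 level was not tested.

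Replicates of members lay close together. The residual SD within groups had a median of 0.0673 over members, against 0.0911 over tested genes of the top quartile by level and 0.113 over all tested genes (log2 scale). It was smallest for Psma5 (0.0320) and Psmb5 (0.0331). It was below the median of that top quartile for 32 of the 46 members, and largest for the base assembly chaperones Psmd5 (0.252) and Psmd9 (0.184) and for Psmd11 (0.168). Psmd5 was at 7.56, 11.4 and 11.1 FPKM in single-housed KO, 8.21, 7.64 and 11.3 FPKM in group-housed KO, 10.5, 7.63 and 11.9 FPKM in single-housed wild type, and 11.3, 11.4 and 12.1 FPKM in group-housed wild type. Low and high values thus occurred side by side in 3 of the 4 groups, and group-housed wild type held high values only.

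Single housing was compared with group housing in wild type first. No member passed the test (0 of 46; limma with Benjamini-Hochberg adjustment over all tested genes at 0.05, lowest adjusted p = 0.237), and 5 of 12716 genes did (0.0393%). All 14 core subunits nevertheless had higher means in single housing, with a median log2 difference of +0.10, as did 13 of 17 regulatory subunits, with a median of +0.06. Over all members 34 of 46 differences were above 0 and the median was +0.06, where 50.9% of all genes were above 0 and their median was 0.00317. An unadjusted p under 0.05 was found for 9 members and for 12.3% of all genes, and all 9 had a higher mean in single housing, against 5.91% of all genes. They were the alpha-ring genes Psma5 and Psma7, the beta-ring genes Psmb2, Psmb3, Psmb5, Psmb6 and Psmb7, the ATPase Psmc2 and the activator Psme4. None (0) was lower with such a p, against 6.36% of all genes. An earlier result of these data already showed proteasome subunits as a list with mostly higher values here, so these counts are no independent evidence of it.

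The 3 members with the smallest p were core subunits. Psma5 lies on chromosome 3 at 108256926 to 108279974 (GRCm38). It was at 58.4, 58.7 and 58.5 FPKM in single-housed wild type, against 54.2, 50.9 and 53.3 FPKM in group-housed wild type, so the groups did not overlap. The log2 difference was +0.15 ± 0.04 (SE; limma, adjusted p = 0.237). In KO it was at 54.7, 54.3 and 56.1 FPKM in single housing and 54.7, 51.8 and 53.3 FPKM in group housing, and those groups overlapped. Psma7, on chromosome 2 at 180036374 to 180042433, had 111, 110.1 and 113 FPKM in single-housed wild type and 101, 90.5 and 90.5 FPKM in group-housed wild type. Its difference was +0.24 ± 0.07 (limma, adjusted p = 0.240), and the library AGTTCC was the highest of the group-housed ones. In single-housed KO it was at 117.3, 97.4 and 104 FPKM. Psmb7, the trypsin-like catalytic subunit, lies on chromosome 2 at 38588036 to 38644087. It was at 182, 177 and 181 FPKM in single-housed wild type and at 167, 142 and 141 FPKM in group-housed wild type, with a difference of +0.27 ± 0.07 (limma, adjusted p = 0.238). Again AGTTCC was the highest group-housed library. In group-housed KO Psmb7 was at 147, 167 and 156 FPKM.

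The other catalytic subunits showed smaller differences. Psmb6, the caspase-like subunit on chromosome 11 at 70525367 to 70527858, was at 218, 199.7 and 202 FPKM in single-housed wild type, against 191, 188 and 181 FPKM in group-housed wild type. The groups did not overlap and the log2 difference was +0.14 ± 0.04 (limma, adjusted p = 0.273). In group-housed KO it was at 189, 183 and 193 FPKM. Psmb5, the chymotrypsin-like subunit on chromosome 14 at 54614119 to 54618022, had 203, 208 and 202 FPKM in single-housed wild type and 196, 195 and 187 FPKM in group-housed wild type. This was a difference of +0.08 ± 0.04 (limma, adjusted p = 0.385), and group-housed KO had 194, 191 and 189 FPKM. For the immunoproteasome gene Psmb10 the difference was +0.04 ± 0.05, with a 95% interval of -0.08 to 0.16.

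Without overlap between the groups, 17 members were higher in single-housed wild type (37% of members), against 10.4% of all tested genes, and 10 of the 17 were core subunits. The activator Psme3 was the 1 member that was lower without overlap, a share of 2.17% against 11.5% of all genes. The 3 base assembly chaperones Psmd5, Psmd9 and Psmd10 and the activators Psme1, Psme2 and Psme3 all had differences below 0, none of which passed. Psme4 was at +0.14 ± 0.06 and the ATPase Psmc2 at +0.11 ± 0.04. Among regulatory subunits the lid deubiquitinase Psmd14 was at -0.10 ± 0.09 and the ATPase Psmc6 at -0.08 ± 0.05, with 95% intervals that include 0. The plot of single members shows how the differences of core subunits lie on one side in wild type.

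**Figure D2:**
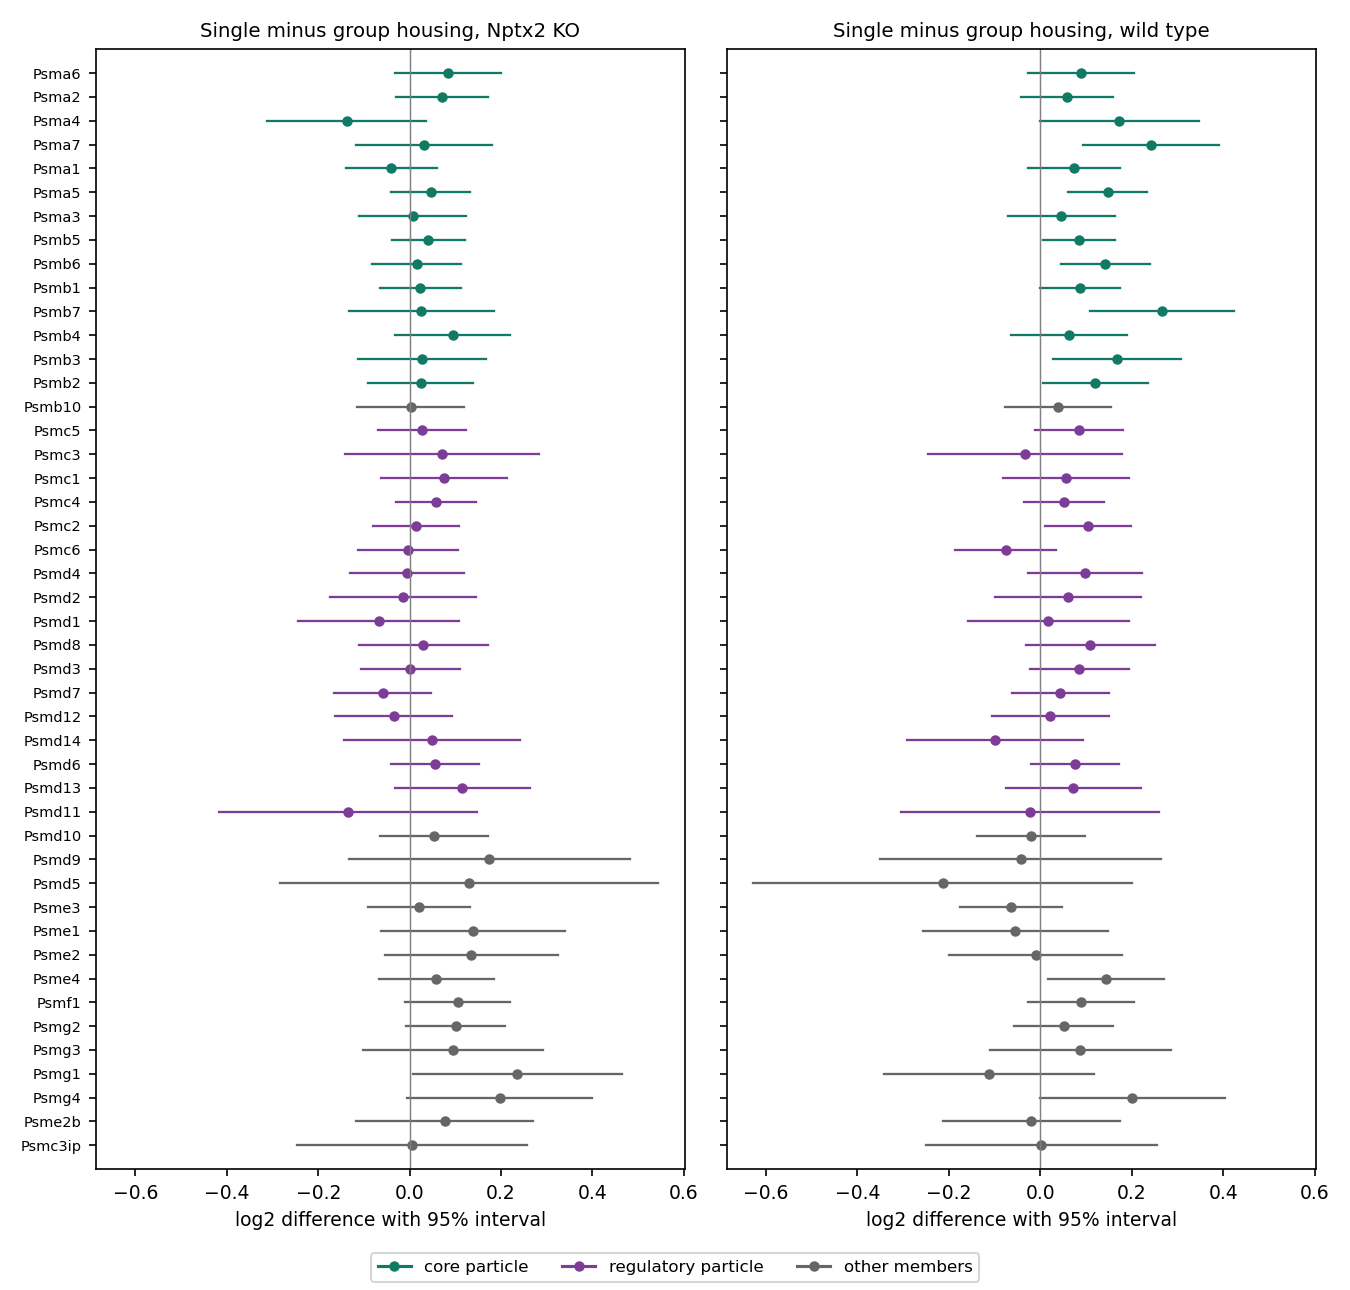
Log2 difference of single minus group housing with its 95% interval for each member, in Nptx2 KO on the left and in wild type on the right. Of the core subunits 12 of 14 lie above 0 in KO and all 14 do in wild type, and none of the 46 members passed the adjusted threshold in either.

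Other measures also differed between the housing groups in wild type. Those given here were mostly lower in single housing, unlike the core subunits. Cytosolic heat shock genes (11 tested of 12) were lower in single-housed wild type in 11 of 11, and their score was -0.259 to -0.210 there and 0.183 to 0.210 in group-housed wild type. A score is the mean deviation of the genes from their own 12-library means, in log2 units. Other interneuron markers (8 genes) scored -0.260 to -0.128 in single-housed wild type and 0.0192 to 0.258 in group-housed wild type, and summed to 359 to 461 FPKM in the single-housed and 508 to 778 FPKM in the group-housed libraries. Parvalbumin interneuron markers (11 genes) went both ways, with 6 lower and 5 higher in single-housed wild type. Their scores nearly touched, at -0.0778 to -0.0503 in single-housed wild type and -0.0490 to 0.158 in group-housed wild type. The interferon and MHC class I genes (7 tested, 5 lower and 2 higher) scored -0.0858 to -0.0364 in single-housed wild type and 0.0180 to 0.0423 in group-housed wild type. Amino acid response genes (17 tested of 18) scored -0.412 to -0.331 in single-housed wild type. In group-housed wild type they were at -0.395 in AGTTCC, 0.502 in CCGTCC and 0.543 in GTCCGC. The part of heat shock genes, interferon genes and interneuron markers in the proteasome values was not tested. With a term for the amino acid response score the median over members was 0.0728 and 38 of 46 were higher, while the difference of Psmb7 was 0.163 with that term. With a term for Y-linked signal the differences of Psma7 and Psmb5 were 0.462 and 0.158. In wild type this term separates the same libraries as housing does. Its size is therefore set in single-housed KO alone, by CAGATC against CTTGTA and AGTCAA. These 0.462 and 0.158 are thus no wild-type differences freed of sex.

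Transcript length also moved with housing. Genes in the shortest quartile by transcript length (56 to 1603 bases, 3170 genes) had a median difference between single and group housing of +0.03 in KO, with 60.47% above 0, and those in the longest quartile a median of -0.03, with 37.54% above 0. In wild type the shortest quartile had +0.04 with 60.79% above 0, and the longest -0.02 with 44.84%. Of the 46 members 29 fell into the shortest quartile, as did 11 of 14 core subunits, whose median length was 1162.5 bases against 2784.5 bases over all tested genes. The core median was 0.0263 in KO, beside 0.0254 for the shortest quartile, and 0.104 in wild type, beside 0.0369. The part of transcript length in the members' values was not tested.

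**Figure D3:**
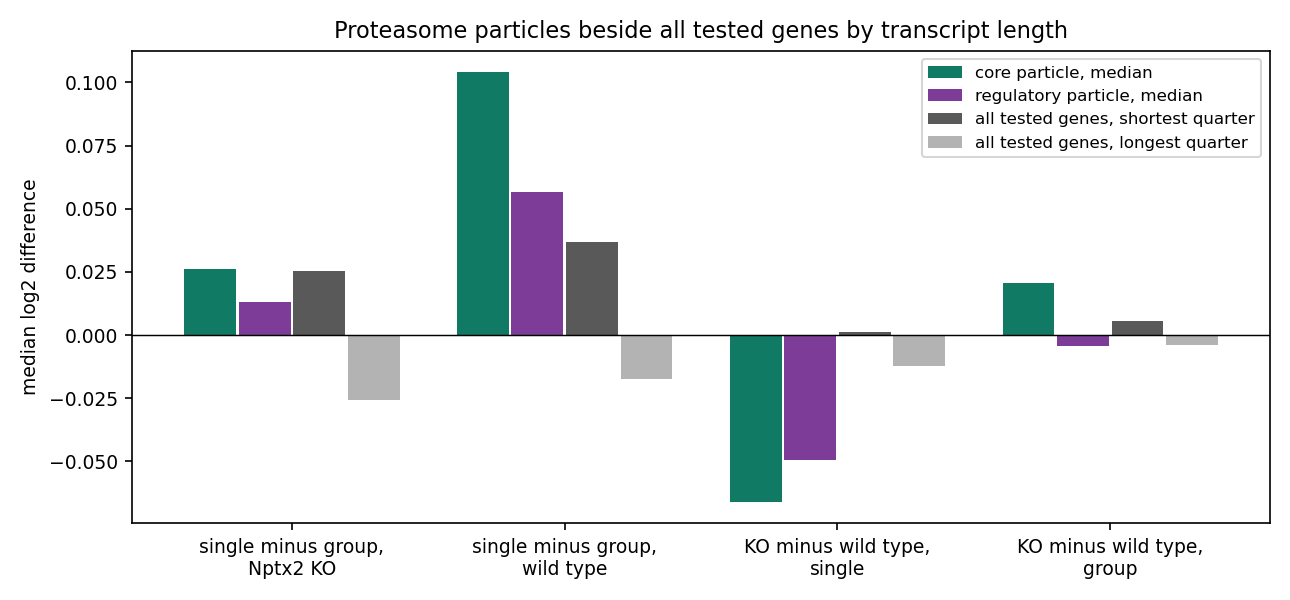
Median log2 difference over the 14 core subunits, the 17 regulatory subunits and all tested genes of the shortest and longest quartile of transcript length, in 4 comparisons. For housing the core median is +0.03 in KO and +0.10 in wild type, beside +0.03 in KO and +0.04 in wild type for the shortest genes, and -0.07 for KO minus wild type in single housing, where the shortest genes are near 0.

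The same housing contrast within KO again called no member (0 of 46; limma, lowest adjusted p = 0.995), against 1 of 12716 genes (0.00786%). An unadjusted p under 0.05 was found for 1 member and for 4.36% of all genes. Of the members 37 of 46 were higher in single housing, with a median of +0.04, against 50.3% of all genes and a median of 0.000769. Core subunits were higher in 12 of 14 with a median of +0.03, and regulatory subunits in 10 of 17 with a median of +0.01. The assembly and activator genes were on the same side: 4 of 4 core assembly chaperones, 3 of 3 base assembly chaperones and 4 of 4 activators had higher means in single-housed KO.

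The smallest p-values in KO belonged to core assembly chaperones, whose products pair up to build the alpha ring. Psmg1 lies on chromosome 16 at 95979933 to 95990960. It was at 20.997, 26.1 and 25.3 FPKM in single-housed KO, against 21.2, 20.01 and 19.5 FPKM in group-housed KO. CAGATC lay within the group-housed range and the other single-housed libraries above it, and the log2 difference was +0.24 ± 0.10 (limma, adjusted p = 0.995). With a term for Y-linked signal it was 0.0511. As CAGATC is the only single-housed KO library without that signal, this value compares CAGATC alone with group-housed KO. Psmg4, on chromosome 13 at 34162964 to 34178173, had 16.2, 13.3 and 13.1 FPKM in single-housed KO and 11.5, 13.9 and 11.4 FPKM in group-housed KO, a difference of +0.20 ± 0.09 (limma, adjusted p = 0.995). Here CAGATC was the highest library, and without it the difference was 0.106. With the Y-linked term, which again leaves CAGATC alone for single-housed KO, the difference was 0.380. In wild type it was at 12.4, 13.6 and 13.4 FPKM in single housing and 11.2, 11.1 and 11.5 FPKM in group housing, without overlap. Psmg2, the partner of Psmg1, was at 22.6, 22.8 and 22.6 FPKM in single-housed KO and at 21.3, 21.2 and 20.7 FPKM in group-housed KO. It was the 1 member higher without overlap (2.17% of members, 3.47% of all genes), at +0.10 ± 0.05 (limma, adjusted p = 0.995). In wild type Psmg2 was at 24.6, 21.8 and 22.2 FPKM in single housing and 22.3, 22.1 and 21.7 FPKM in group housing, which overlapped.

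Markers of other cell types also differed with housing in KO, where 50.3% of all genes were above 0. Of 8 excitatory neuron markers 7 were tested, and 6 of these had lower means in single housing (median difference -0.14). They scored -0.258 to -0.00119 in single-housed KO and 0.0762 to 0.166 in group-housed KO. Their part in the proteasome values was not tested.

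Housing in KO and housing in wild type were compared through their interaction, which is the KO difference minus the wild-type difference. No member passed (0 of 46; limma, lowest adjusted p = 0.646), against 0.00786% of all genes, and 4 members had an unadjusted p under 0.05, against 7.71%. The core median was -0.10 with 12 of 14 below 0, against 50% of all genes, the median over all members was -0.03, and that over all genes 3.49e-05. Psma4, an alpha-ring gene on chromosome 9 at 54950790 to 54958030, had the smallest p. It was at 119, 105 and 102 FPKM in single-housed KO, 109, 125 and 125 FPKM in group-housed KO, 128, 124 and 121 FPKM in single-housed wild type, and 121, 108 and 103 FPKM in group-housed wild type. Single housing thus went with a lower mean in KO and a higher one in wild type, and the interaction was -0.31 ± 0.11 (limma, adjusted p = 0.646). With a term for the amino acid response score it was -0.141. The interaction of Psmb7 was -0.24 ± 0.10, and that of Psmg1, which ran the other way, was +0.35 ± 0.15 (limma, adjusted p = 0.646 each). Psmg1 was at 18.97, 19.4 and 23.9 FPKM in group-housed wild type. With the same term these were -0.0942 and 0.182.

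The mean score over all 46 members was higher in single housing in both genotypes. The member score was 0.0139, 0.0145 and 0.0256 in single-housed KO, 0.00350, -0.0492 and -0.0318 in group-housed KO, 0.0463, 0.0202 and 0.0264 in single-housed wild type, and -0.0152, -0.0209 and -0.0334 in group-housed wild type. The lowest single-housed library, at 0.0139, was above the highest group-housed one, at 0.00350. That gap is smaller than the pooled within-group SD of 0.0161. No member alone separated single from group housing over both genotypes (0 of 46, the share over all genes is not reported here). The members were chosen with earlier results known, and of the single-housed libraries only CAGATC lacks Y-linked signal. The core score was 0.0510, -0.0405 and -0.0066 in single-housed KO, 0.00457, -0.0289 and -0.0385 in group-housed KO, 0.0795, 0.0670 and 0.0715 in single-housed wild type, and -0.0102, -0.0541 and -0.0946 in group-housed wild type. The 3 single-housed wild-type libraries were the highest for the core, and within each of the other groups the libraries were spread out. The regulatory score overlapped between all groups. A score is given as a description, with no test.

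**Figure D4:**
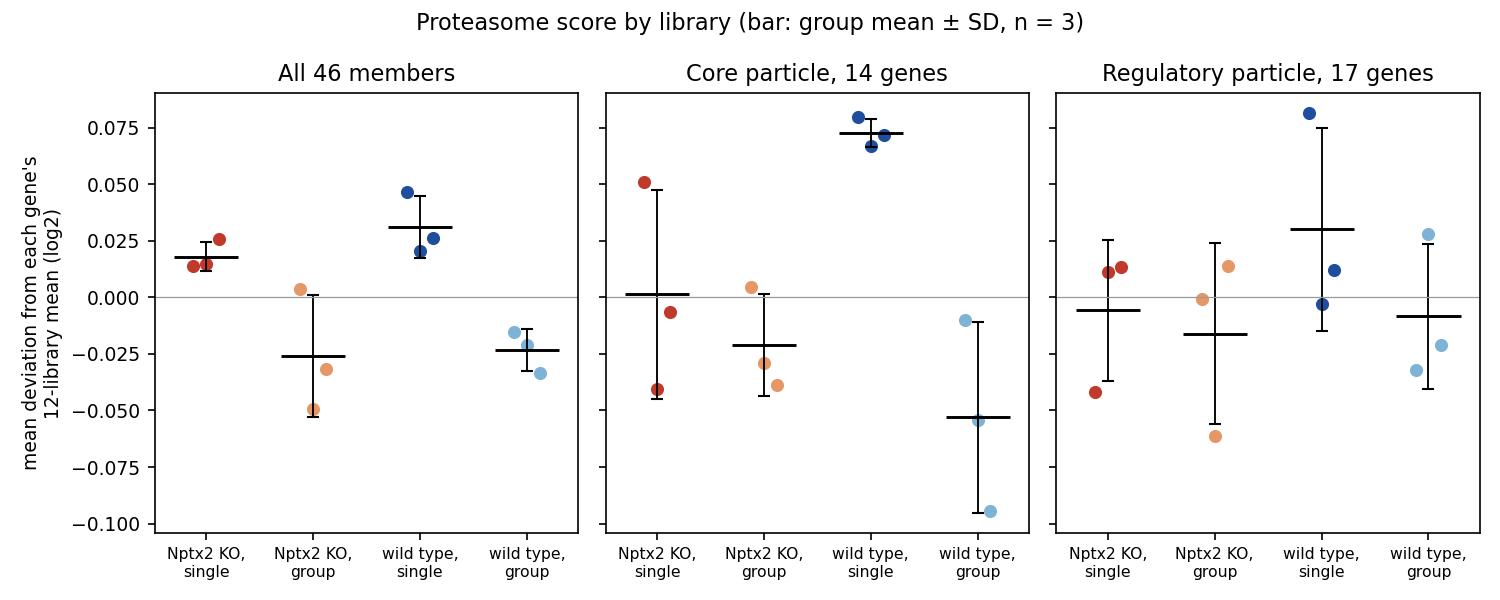
Mean log2 deviation of all 46 members, the 14 core subunits and the 17 regulatory subunits from each gene's 12-library mean, with 1 point per library and bars for the group mean ± SD (n = 3). Single-housed wild-type libraries sit at 0.0670 to 0.0795 for the core, above all other libraries, and the 4 groups overlap for the regulatory particle.

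The average effect of housing over both genotypes gave 38 of 46 members higher in single housing with a median of +0.06, against 51% of all genes, and 0 called (limma) against 0.0236% of all genes. An unadjusted p under 0.05 was found for 9 members, all higher, and for 4.36% of all genes in that direction. This average contains the wild-type difference, so it is no independent evidence either. Of the single-housed libraries only CAGATC lacks Y-linked signal, so housing and sex are nearly aligned here too. With a term for that signal, set by CAGATC against CTTGTA and AGTCAA, 29 of 46 members were higher. For the average effect of genotype 15 of 46 members were higher in KO, against 47.8% of all genes, and their median was -0.02. Leaving out 1 library gave -0.0289 (without CGATGT, 12 higher) to -0.00574 (without ATGTCA, 20 higher). Again 0 members were called (limma), against 0.0393% of all genes, and 2 members had an unadjusted p under 0.05, Psme1 higher and Psmd3 lower in KO, against 3.8% of all genes.

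KO was compared with wild type in single housing to ask whether genotype altered the state after isolation. No member passed (0 of 46; limma, lowest adjusted p = 0.567), against 5 of 12716 genes (0.0393%). Lower means in KO were seen for 13 of 14 core subunits (median -0.07) and for 12 of 17 regulatory subunits (median -0.05). Over all members 31 of 46 were below 0, against 50.9% of all genes, and the median was -0.02. This comparison and housing in wild type share the single-housed wild-type libraries, which were the highest for the core. The scores of 3 other lists also separated the groups: parvalbumin interneuron markers were at -0.00446 to 0.0487 in single-housed KO and -0.0778 to -0.0503 in single-housed wild type, other interneuron markers at -0.0233 to 0.189 in KO and -0.260 to -0.128 in wild type, and heat shock genes at -0.183 to 0.137 in KO and -0.259 to -0.210 in wild type. Their part was not tested. An unadjusted p under 0.05 was found for 7 members (15.2%) and 7.93% of all genes. Psme1 and Psmg1 were higher in KO, and Psma4, Psma5, Psmb6, Psmb7 and Psmd3 were lower. Each of these 7 also had groups that did not overlap, as did Psmd9 and Psme3 on the higher side. Together that made 4 members higher (8.7%) against 7.72% of all genes, and 5 lower (10.9%) against 8.06%.

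Psme1 encodes a subunit of the activator ring that opens the core without ubiquitin or ATP and lies on chromosome 14 at 55578123 to 55581529. It was at 32.4, 35.8 and 28.9 FPKM in single-housed KO, against 25.8, 27.3 and 26.0 FPKM in single-housed wild type. All KO values were above all wild-type values, and the difference was +0.28 ± 0.09 (limma, adjusted p = 0.567). In group housing it was at 29.2, 26.4 and 32.4 FPKM in KO and 27.3, 25.6 and 29.3 FPKM in wild type, which overlapped. Its partner Psme2 was at +0.06 ± 0.09, and the ratio of Psme1 to Psme2 in FPKM was 1.13 to 1.42 in single-housed KO and 0.970 to 1.15 in single-housed wild type. Psmg1 was at 20.997, 26.1 and 25.3 FPKM in single-housed KO and at 19.9, 19.8 and 17.5 FPKM in single-housed wild type, a difference of +0.32 ± 0.10 (limma, adjusted p = 0.567). With a term for the amino acid response score it was 0.208. That score was 0.455 in CTTGTA and 0.548 in AGTCAA, the KO libraries with the highest Psmg1, and -0.415 in CAGATC.

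Psmd3, a lid scaffold on chromosome 11 at 98682554 to 98695979, had 96.0, 86.1 and 88.4 FPKM in single-housed KO, against 97.7, 97.2 and 102 FPKM in single-housed wild type. The groups did not overlap and the difference was -0.13 ± 0.05 (limma, adjusted p = 0.595). With the amino acid response term it was -0.0839. In group housing Psmd3 was at 88.4, 88.5 and 93.0 FPKM in KO and 96.8, 91.1 and 91.7 FPKM in wild type, which overlapped. Of the catalytic subunits, Psmb7 was at 169, 154 and 155 FPKM in single-housed KO and 182, 177 and 181 FPKM in single-housed wild type, a difference of -0.18 ± 0.07 (limma, adjusted p = 0.621). Psmb6 had 193, 185 and 194 FPKM in single-housed KO and 218, 199.7 and 202 FPKM in single-housed wild type, a difference of -0.12 ± 0.04 (limma, adjusted p = 0.616). Psmb5 was at 204, 192 and 195 FPKM in single-housed KO and 203, 208 and 202 FPKM in single-housed wild type, and there the groups overlapped (-0.05 ± 0.04). By the authors' deposited table no member (0) passed at an adjusted p of 0.05 in this comparison, the lowest adjusted p was 0.566, and 6 members had a p under 0.05.

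**Figure D5:**
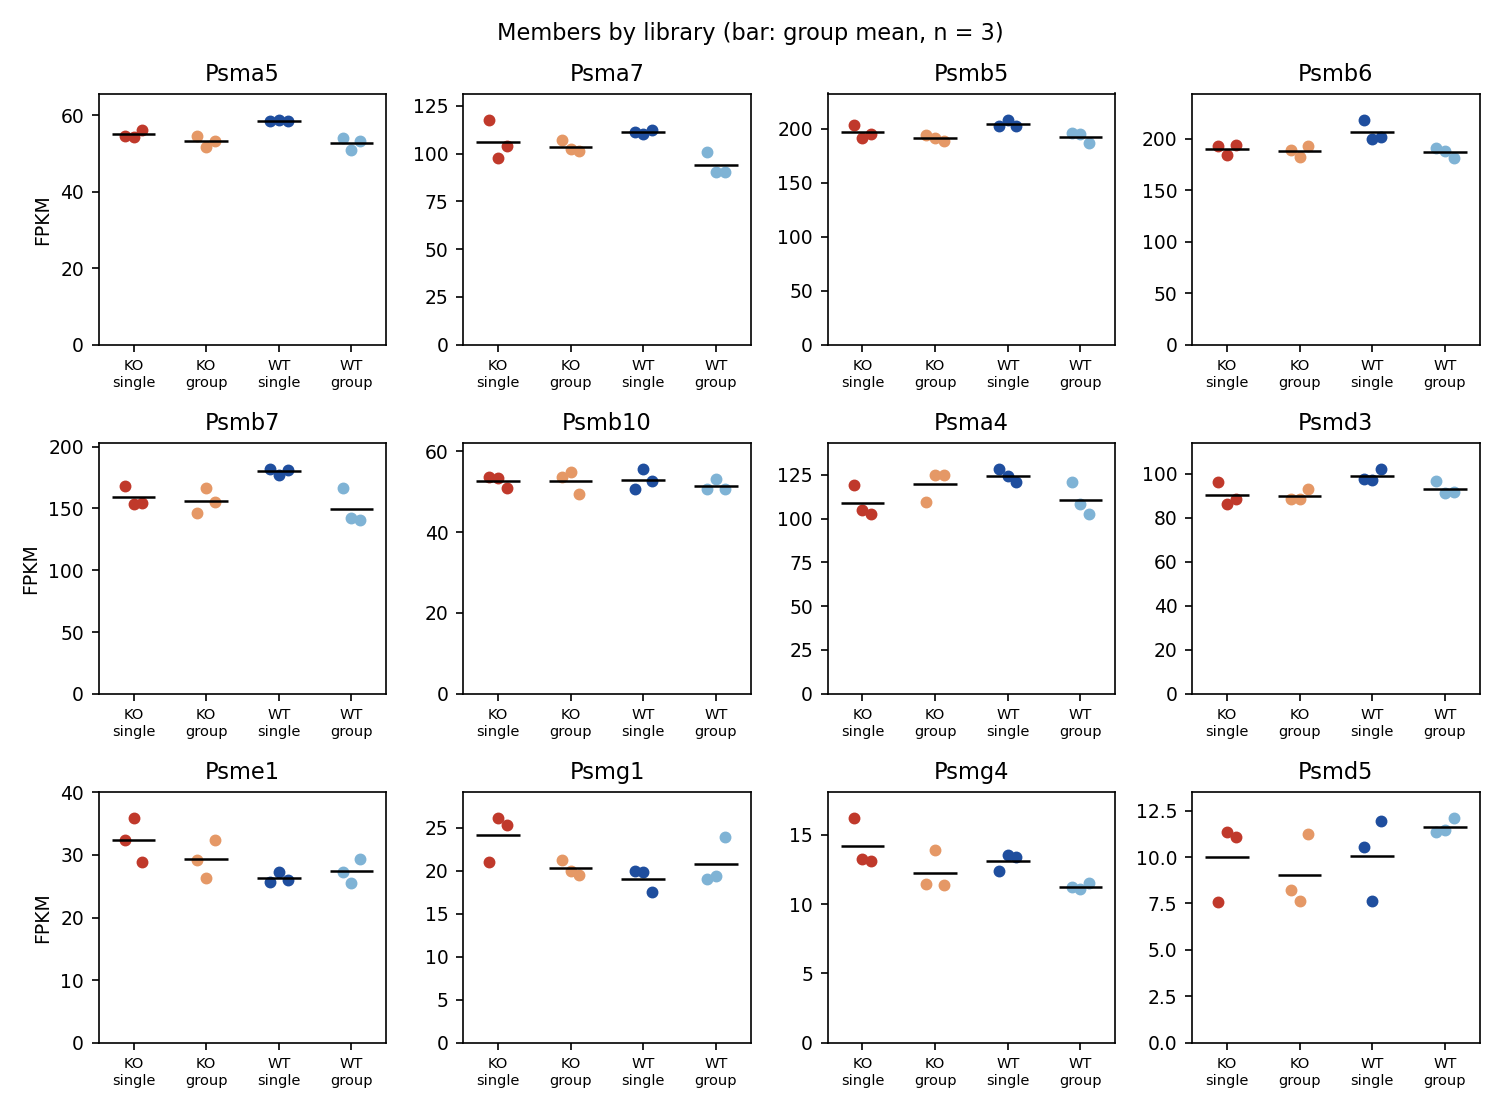
FPKM by library for 12 members, with 1 point per library and a bar for the group mean (n = 3), on axes that start at 0. Psma5, Psma7, Psmb6 and Psmb7 are highest or near it in single-housed wild type, Psme1 and Psmg1 in single-housed KO, and Psmd5 has low and high libraries within 3 of the groups.

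In group housing KO and wild type were closest. No member passed (0 of 46; limma, lowest adjusted p = 1) against 0 of 12716 genes (0%), and 0 members had an unadjusted p under 0.05, against 3.66% of all genes. Of the members 23 were higher and 23 lower, beside 48.1% and 51.8% of all genes, the median was -0.000381, and that over all genes was -0.00397. Psma7 had 107, 103 and 101 FPKM in group-housed KO and 101, 90.5 and 90.5 FPKM in group-housed wild type. It was the 1 member higher without overlap (2.17% of members, 3.15% of all genes), at +0.14 ± 0.07 (limma, adjusted p = 1). Psmd4, a ubiquitin receptor of the base on chromosome 3 at 95032694 to 95042614, was at 92.4, 91.0 and 85.4 FPKM in group-housed KO and at 84.9, 86.3 and 77.3 FPKM in group-housed wild type. Its groups overlapped, and the difference was +0.11 ± 0.06 (limma, adjusted p = 1). Without the wild-type library GTCCGC it was 0.0639. In single housing it was at 84.5, 89.2 and 94.0 FPKM in KO and 88.8, 86.3 and 90.8 FPKM in wild type. Psmd5, with the wide spread given above, was at -0.35 ± 0.19 (limma, adjusted p = 1), and with Psmg2 it was lower without overlap (4.35% of members, 3.86% of all genes). By the authors' deposited table no member (0) passed here and the lowest unadjusted p was 0.0764.

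The wider pathway was read from a list of 35 genes for free subunits, assembly, deubiquitinases, shuttles, the unfoldase, transcription factors, ubiquitin and its activating enzymes. Of these 30 were deposited and tested, and 0 passed in any of the 7 comparisons (limma). In wild-type housing 15 were higher and 15 lower, with a median of -0.000300, and 1 of 30 had an unadjusted p under 0.05, against 50.9% of all genes above 0, 12.3% with such a p and 0.0393% called. It was Uba6, an alternative activating enzyme of ubiquitin, at 1.64, 1.49 and 1.77 FPKM in single-housed wild type and 2.46, 2.12 and 2.37 FPKM in group-housed wild type, without overlap (-0.33 ± 0.09; limma, adjusted p = 0.238). In KO housing 14 were higher and 16 lower, against 50.3% of all genes above 0. In single housing KO was higher in 12 and lower in 18, against 50.9% of all genes below 0, and in group housing it was higher in 14 and lower in 16, against 51.8% below 0. Next to Uba6, the core maturation factor Pomp was at +0.18 ± 0.08 in wild-type housing (limma, adjusted p = 0.414). In single housing Akirin2, which is needed to import proteasomes into the nucleus, was at +0.17 ± 0.07 in KO and the shuttle Ubqln1 at +0.07 ± 0.04. In group housing the deubiquitinase Uchl5 was at +0.13 ± 0.09 in KO.

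Nfe2l1 is a transcription factor that raises proteasome genes when proteasome activity falls. It was at 13.2, 13.0 and 16.4 FPKM in single-housed KO, 16.6, 14.3 and 15.7 FPKM in group-housed KO, 17.2, 14.7 and 15.4 FPKM in single-housed wild type, and 13.1, 15.8 and 15.6 FPKM in group-housed wild type. The 4 groups overlapped, and the housing difference was -0.13 ± 0.10 in KO and +0.09 ± 0.10 in wild type (limma, adjusted p = 0.995 and 0.774). The values are of its RNA on ribosomes and carry nothing of its processing, which sets its activity.

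Some members share sequence with other genes, and the sources used here do not say how reads were divided among them. By alignment of GENCODE M21 transcripts, 12 members had a near copy of at least 90% identity over at least 50% of the transcript, and 7 of these had a copy in the deposited table. For Psma5 the pseudogenes Gm8394 and Gm12989, 98.63% and 97.55% identical, were at +0.12 ± 0.05 and +0.13 ± 0.06 in wild-type housing, beside +0.15 ± 0.04 for Psma5 itself. Psme2b was 99.37% identical to Psme2 and stood at 0.169 to 0.204 times its FPKM in all libraries. Exons of 5 members overlap another deposited gene on the opposite strand. Psmb7 shares 405 bases with Nek6, which averaged 2.54 FPKM against 161 FPKM for Psmb7, and Psmc3 shares 215 bases with Slc39a13. The kit marks strand, per the labels' protocols, but whether the counting used it is not stated.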

How the data were processed

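Ribosome-associated RNA was pulled down from cortex and sequenced in 12 libraries of 4 groups of 3. The submitters' processing notes name the aligner HISAT2, the assembler StringTie, limma and the build GRCm38, without versions or settings. The authors deposited 1 log2(FPKM + 1) value per gene and library, in columns named by barcode and group; 0 per-sample columns were left unused. Deposited p-values and score values (moderated t and F statistics) of the authors' own comparisons stand in the same table, per the file headers; the log2 differences there were not used.

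Genes with at least 1 FPKM in at least 3 libraries were tested, 12716 of 13190. A mean per group was fitted with limma 3.58.1 in R 4.3.3 (variance trend, 12 libraries, 8 residual and 2.18 prior degrees of freedom) in 7 comparisons that share the 4 groups, with Benjamini-Hochberg adjustment over all tested genes and a threshold of 0.05. Differences are in log2(FPKM + 1) units, so changes of low genes are understated; FPKM values were obtained by undoing that scale with its pseudocount of 1. The fit was tested on simulated data, but its recovery of differences as small as those of the members is not reported here. Depth is unknown, so no counting interval is given.

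The members, roles and lists were chosen with earlier results of these data known. Values in every library are given for the catalytic subunits, the 3 members with the smallest p in each of 4 simple comparisons and the interaction, and the highest and lowest member. From the pathway list Nfe2l1 and the 2 genes with the smallest p in each simple comparison are named, except that some of these are not reported here. Other names came from counts or overlaps and were chosen after their values were seen. Positions are from GENCODE M21 on GRCm38, where 13131 gene IDs were found and 59 were not, near copies from blastn 2.17.0, and promoters from RefSeq.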

Additional observations from a re-analysis of the deposited data

How the results depend on the processing

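Depth is unknown, and 3 libraries per group leave intervals that reach up to 0.424 for a core subunit (Psmb7, housing in wild type, log2 scale). No paired analysis was possible because the columns carry no replicate numbers. The alternatives were a pseudocount of 0.1, no filter, no variance trend, array weights, the compared groups alone, a term for Y-linked signal, a term for the amino acid response score, and leaving out each library in turn. The count of members called was 0 in all 130 combinations of comparison and alternative (limma), with the lowest adjusted p at 0.0636. The 339 values of single members computed under them kept their direction, and none passed the threshold. This agreement was in part fixed in advance. Most of these members had been picked for a small p in the same comparisons, and some alternatives cannot change their differences.

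Of 130 medians over members, 126 moved by less than 0.0161, the pooled within-group SD of the member score. Many of them could not move. No filter and no variance trend leave every median as it was. Leaving out a library of a group that is not compared does the same for a simple comparison. With the term for Y-linked signal the interaction median was -0.0457, against -0.0281 in the fit as reported. For the interaction and for KO minus wild type in single housing this term amounts to leaving out CAGATC. There the term and that omission are not separate alternatives. With the term for the amino acid response score the median of KO minus wild type in single housing was -0.0423, against -0.0249. Leaving out 1 library gave medians of 0.0319 to 0.0524 for housing in KO (highest without CGATGT), 0.0505 to 0.0739 for housing in wild type, -0.0409 to -0.0243 for KO minus wild type in single housing, and -0.0457 to -0.0156 for the interaction, lowest without CAGATC. For KO minus wild type in group housing they were -0.0116 to 0.0121, so that its sign is not fixed. The causes were not tested. Array weights gave a difference of 0.0856 for Psmg4 and housing in KO, against 0.197 as reported. The Y-linked term, which there leaves CAGATC alone for single-housed KO, gave 0.380. The difference of Psmb10 for housing in wild type was 0.00496 to 0.0814 over the alternatives.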
